A study of Rattus norvegicus with 16 samples.

Results

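The genes described here encode integrins, selectins, their cell-surface ligands and other proteins by which leukocytes adhere to vessel walls, measured in rat hippocampus 24 h after severe fluid percussion injury (TBI). They were chosen by gene name: every integrin alpha subunit (Itga) and beta subunit (Itgb1 to Itgb8), Icam1 to Icam5, the selectins (Sel), and Vcam1, Madcam1, Selplg, Ptprc, Cd9, Cd34, Cd47, F11r, Jam2 and Jam3. The array held 39 of them among 26583 gene names, on 47 probes, and where a gene had several probes (8 genes) the one with the highest mean signal was used. Icam3, Icam4 and Itgax were not found among the names on this array. Of the 39 genes, 36 were tested, and the probes used for Cd34, Itga2 and Itga10 were not well above background on all arrays of any group, although a second Itga10 probe was, in each drug group. Of the 36, 20 passed this filter in a Naive, Sham or TBI group and 16 through the drug groups alone.

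The RNA came from adult male Sprague-Dawley rats, 1 rat per array and 16 arrays in 6 groups: 3 Naive rats that had no treatment, 2 Sham rats with a sham injury, 3 injured rats (TBI), and 3, 3 and 2 injured rats that also received PMI (TBI+PMI), JM6 (TBI+JM6) or E33, which is estradiol (TBI+E33). Every drug group was injured, and no group received a drug without injury. Whole hippocampi were dissected, so a change in the number of cells of a type and a change in RNA per cell cannot be told apart. The Naive, Sham and TBI arrays were scanned in one session and the drug arrays in another, and the number of probes well above background was 16274 to 18239 in the former and 20256 to 24979 in the latter. A drug and a session effect therefore cannot be told apart in any comparison of a drug group with TBI. Both Sham arrays lay on one slide and all TBI arrays on another, and Naive arrays lay on both of these slides. In TBI vs Sham an injury and a slide effect can be separated only through the Naive arrays, of which replicate 3 alone lay on the TBI slide. Marker genes of neurons were present on all arrays: 5 of 5 neuronal genes on the array were above background on each. Of 6 genes of the hippocampal fields, Wfs1, Zbtb20, Neurod6 and Fibcd1 were above background on all 16 arrays and Dsp on 14. Prox1, a granule cell gene, was above background on 1 of the 8 Naive, Sham and TBI arrays. It was above background on 3 TBI+PMI, 2 TBI+JM6 and 2 TBI+E33 arrays. The choroid plexus list, led by Ttr, summed to between 21.5% and 15100% of the reference level defined next. Whether the dissections differed in the tissue they held was not tested.

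Integrins are cell-surface receptors built of an alpha and a beta chain. Those of leukocytes (Itgal or Itgam paired with Itgb2, Itga4 paired with Itgb1 or Itgb7) are activated from inside the cell and then bind ICAM and VCAM proteins on activated endothelium, after selectins have slowed the cell by binding glycans such as those on PSGL-1, the product of Selplg. Itgam is also expressed by microglia, the resident macrophages of the brain, and is widely used as a marker of them. Throughout, the level of a gene on an array is its relative signal, its probe intensity as a percent of the 75th percentile of the probes well above background on that array. It is compared between arrays for one probe and never between probes. Fold changes are on the log2 scale with their standard error (SE), a gene was called at a limma adjusted p under 0.05 (Benjamini-Hochberg over all tested probes), and "rose" and "fell" are used of called genes alone.

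Upstream sequences are shown for 4 genes named in the results below: Itgam (called in TBI vs Sham), Icam1 (called in TBI vs Naive), Vcam1 (called in neither) and Madcam1. Madcam1 was called higher than TBI in all drug groups, but it passed the filter through those groups alone. They were scanned in another session than TBI. RefSeq promoters (build GRCr8) were given for 27 of the 39 genes. Each line holds the 250 bases before the annotated start, 5′ to 3′ in the direction of transcription. Capitals mark matches, on either strand, to the letters GAGGAA (the core bound by the myeloid factor PU.1), the NF-kappaB consensus of 10 letters, the variant of that site known from the human ICAM1 promoter or TATAAA, and no match of one motif overlapped a match of another.
Itgam promoter, chr1:192089342-192089591, plus strand: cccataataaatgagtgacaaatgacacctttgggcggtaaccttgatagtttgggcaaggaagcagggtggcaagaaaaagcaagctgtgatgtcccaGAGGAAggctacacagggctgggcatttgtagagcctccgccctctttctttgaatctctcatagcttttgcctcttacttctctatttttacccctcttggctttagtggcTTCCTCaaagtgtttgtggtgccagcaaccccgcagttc
Icam1 promoter, chr8:27829595-27829844, plus strand: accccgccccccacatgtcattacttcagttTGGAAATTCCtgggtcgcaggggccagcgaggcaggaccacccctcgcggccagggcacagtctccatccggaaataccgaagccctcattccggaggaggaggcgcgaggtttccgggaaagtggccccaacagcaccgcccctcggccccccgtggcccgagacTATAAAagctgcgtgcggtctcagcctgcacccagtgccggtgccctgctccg
Vcam1 promoter, chr2:206742784-206743033, minus strand: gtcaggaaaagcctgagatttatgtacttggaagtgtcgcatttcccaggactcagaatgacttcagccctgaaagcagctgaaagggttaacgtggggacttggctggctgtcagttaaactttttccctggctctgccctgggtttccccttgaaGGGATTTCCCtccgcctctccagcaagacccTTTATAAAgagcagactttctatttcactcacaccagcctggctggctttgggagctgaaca
Madcam1 promoter, chr7:10690323-10690572, minus strand: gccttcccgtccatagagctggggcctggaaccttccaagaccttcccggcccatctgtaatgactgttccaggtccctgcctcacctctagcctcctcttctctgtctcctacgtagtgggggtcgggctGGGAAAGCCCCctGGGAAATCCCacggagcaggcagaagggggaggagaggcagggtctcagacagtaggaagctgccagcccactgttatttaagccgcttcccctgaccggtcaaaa

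GAGGAA was found in 10 of the 27 promoters, among them Itgam and Ptprc, and in 23.3% of all 33469 promoters given. The NF-kappaB consensus was found in Vcam1 and Madcam1 and in 4.36% of all promoters, the ICAM1 variant in Icam1 alone of the 27 and in 0.0956%, and TATAAA in Icam1, Itgb7 and Vcam1 and in 12.9%. In Itgam the GAGGAA matches began 151 and 39 bases before the start, and in Icam1 the ICAM1 variant began 219 bases before it. These are matches of letters and carry no measurement of binding.

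Of the array's 60-base probes, 3 are shown because each spans a splice junction in the positions the array files give (build rn4), and because the called changes of Itgal and Jam3 rest on 1 probe each while Itgam had a second probe, shown here.
Itgal probe, chr1:186594579-186597988, plus strand: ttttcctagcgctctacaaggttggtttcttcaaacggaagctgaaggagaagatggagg
Itgam probe, chr1:187385032-187385565, plus strand: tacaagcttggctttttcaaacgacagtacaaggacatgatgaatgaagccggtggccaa
Jam3 probe, chr8:26698605-26699793, minus strand: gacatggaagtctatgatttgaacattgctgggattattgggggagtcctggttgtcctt

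TBI and Sham rats were compared for differences beyond surgery, but the groups lay on different slides, so injury and slide coincide in this comparison. In TBI vs Sham, 4 of the 36 tested adhesion genes rose (among them Itgal, Itgam and Itgb2) and 2 fell (Selplg and Jam3). Of all tested probes 9.38% were called in this comparison (2.92% higher, 6.46% lower), against 16.7% of the adhesion genes. With quantile normalization 5 rose and 2 fell, when 7.98% of all probes were called (3.73% higher, 4.25% lower). The median log2 fold change was 0.39 over the adhesion genes and -0.03 over all tested probes. None of the 6 calls remained in 4 of the other analyses (a normexp background correction, limma on the TBI and Sham arrays alone, the methods' t-test after adjustment and the slide as a fixed block), although all 6 kept their direction there. The shares of all tested probes called in these 4 analyses are not given here, so the loss is not set against the array.

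Itgam, the alpha chain of complement receptor 3 on microglia and myeloid cells, had a relative signal of 32.4%, 55.2% and 36.7% in the Naive, 24.7% and 31.9% in the Sham and 58.5%, 90.4% and 77.5% in the TBI rats. All 3 TBI rats were above all Sham and all Naive rats. TBI vs Sham gave a log2 fold change of 1.40 (SE 0.29, limma adjusted p = 0.0149), and in TBI vs Naive it was 0.88 (SE 0.26) with a limma adjusted p of 0.0738, which became a call in 8 of 13 alternatives, quantile normalization and the second probe among them. The second Itgam probe gave 1.65 (SE 0.34, limma adjusted p = 0.0150) and 1.43 (SE 0.31, limma adjusted p = 0.0226), both called. The call of the first probe against Sham was lost without Sham replicate 1 (1.22, limma adjusted p = 0.102), TBI replicate 2 (1.26, 0.0549) or TBI replicate 3 (1.37, 0.0553).

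Itgb2, the beta chain shared by the leukocyte integrins, was also highest in the TBI rats among the Naive, Sham and TBI groups. Its relative signal was 4.70%, 5.04% and 4.65% in Naive, 6.57% and 10.4% in Sham and 12.4%, 18.4% and 15.3% in TBI rats. These groups did not overlap, with Naive lowest and TBI highest. Itgb2 rose by a log2 fold change of 0.88 (SE 0.23, limma adjusted p = 0.0340) in TBI vs Sham and 1.66 (SE 0.21, limma adjusted p = 0.00272) in TBI vs Naive. The call against Sham was lost without Sham replicate 1 (0.55, limma adjusted p = 0.255), TBI replicate 2 (0.74, 0.112) or TBI replicate 3 (0.87, 0.0936). In Sham vs Naive, Itgb2 differed by 0.79 (SE 0.23, limma adjusted p = 0.0544), which was not called.

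Itgal, the alpha chain that pairs with Itgb2 on lymphocytes and other leukocytes, was not well above background on any Naive or Sham array and was above it on 2 of the 3 TBI arrays, at 1.85%, 3.60% and 2.40%, the last not above background. The TBI mean was at least 2.01-fold the level detectable on the Sham arrays (limma adjusted p = 0.00736) and at least 1.66-fold that on the Naive arrays (limma adjusted p = 0.00438). Without Sham replicate 1 the limma adjusted p against Sham was 0.0537.

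Among the adhesion genes of the Itgb2 family (Itgal, Itgam, Itgad and Itgb2 on this array), 3 of 4 rose in TBI vs Sham, where 2.92% of all tested probes did. This list was chosen with earlier results of these data known, so the count is a description. Itgal and Itgad passed the filter through the drug groups alone. Itgad, the remaining alpha chain, was not above background on any Naive, Sham or TBI array.

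Selplg, which encodes the selectin ligand PSGL-1, and Jam3, a junctional adhesion molecule of endothelium and other cells, fell in TBI vs Sham. Selplg was at 5.54%, 7.05% and 5.51% in Naive, 11.9% and 14.3% in Sham and 6.27%, 3.32% and 2.81% in TBI rats. Sham was the highest of these groups, and TBI and Naive overlapped. Its log2 fold change was -1.75 (SE 0.30, limma adjusted p = 0.00829) in TBI vs Sham, and its log2 fold change in TBI vs Naive, -0.63 (SE 0.27, limma adjusted p = 0.206), was not called. Without Sham replicate 2 the limma adjusted p against Sham was 0.0524.

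Jam3 was at 44.0%, 48.8% and 36.2% in Naive, 90.9% and 92.5% in Sham and 64.4%, 45.6% and 37.9% in TBI rats. Again the Sham rats stood above the Naive and TBI rats. Its log2 fold change was -0.93 (SE 0.23, limma adjusted p = 0.0291) in TBI vs Sham and 0.17 (SE 0.21, limma adjusted p = 0.709) in TBI vs Naive. The call against Sham was lost without Sham replicate 1 (limma adjusted p = 0.118), Sham replicate 2 (0.128), TBI replicate 2 (0.0854) or TBI replicate 3 (0.104).

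TBI was also compared with uninjured, unoperated Naive rats. In TBI vs Naive, 7 of 36 adhesion genes rose (among them Itgb2, Itgal, Itgb7, Ptprc, Icam1 and Cd9) and 1 fell (Cd47). Of all tested probes 4.71% were called here (2.98% higher, 1.73% lower), against 22.2% of the adhesion genes. Quantile normalization also gave 7 and 1, with 5.55% of all probes called (2.99% higher, 2.56% lower). The median log2 fold change was 0.26 over the adhesion genes and 0.04 over all tested probes. Again no adhesion gene was called with a normexp background correction, on the TBI and Naive arrays alone, with the methods' t-test after adjustment or with the slide as a fixed block. The shares of all tested probes called there are not given here either.

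Ptprc encodes CD45, a phosphatase on the surface of leukocytes and, at lower levels, of microglia. It was at 6.35%, 9.74% and 6.52% in Naive, 6.18% and 11.7% in Sham and 12.4%, 39.7% and 38.3% in TBI rats. TBI replicate 1 lay close to the higher Sham rat and the other TBI rats well above it. Ptprc rose by a log2 fold change of 1.85 (SE 0.45, limma adjusted p = 0.0375) in TBI vs Naive and 1.65 (SE 0.51, limma adjusted p = 0.0596) in TBI vs Sham, the latter not called. A second Ptprc probe was called higher against Naive (limma adjusted p = 0.0278). It was above background on 1 TBI and no Naive array, so no fold is given. The call of the first probe against Naive was lost when any rat but TBI replicate 1 was left out (limma adjusted p from 0.0535 to 0.139).

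Itgb7, whose product pairs with the alpha chain of Itga4 or Itgae on lymphocytes, showed the same pattern over the TBI rats, at 1.11%, 6.02% and 5.35%. It was above background on TBI replicates 2 and 3, on 1 Sham array (1.40%) and on no Naive array. In TBI vs Naive it was at least 2.18-fold higher (limma adjusted p = 0.0196), and this call was lost without Naive replicate 3 (limma adjusted p = 0.0587), TBI replicate 2 (0.0735) or TBI replicate 3 (0.0813). The alpha chains it pairs with, Itga4 and Itgae, were not above background on any Naive, Sham or TBI array.

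Icam1, the endothelial ligand of the Itgb2 integrins, was at 5.29%, 13.6% and 5.09% in Naive, 9.07% and 10.7% in Sham and 15.8%, 24.4% and 19.1% in TBI rats. TBI lay above the Naive and Sham groups. Its log2 fold change was 1.44 (SE 0.34, limma adjusted p = 0.0339) in TBI vs Naive and 0.98 (SE 0.38, limma adjusted p = 0.124) in TBI vs Sham, the latter not called. Without Naive replicate 1 or 3, or TBI replicate 2 or 3, the limma adjusted p against Naive was 0.0959 to 0.131.

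The other ligands of the immunoglobulin family were called in neither comparison. Vcam1, the endothelial ligand of Itga4-containing integrins, was at 71.3%, 101% and 73.0% in Naive, 59.0% and 64.4% in Sham and 55.7%, 46.3% and 46.0% in TBI rats. Among the Naive, Sham and TBI groups, TBI was the lowest for Vcam1 and the highest for Icam1. The log2 fold change of Vcam1 was -0.72 (SE 0.20, limma adjusted p = 0.0655) in TBI vs Naive and -0.33 (SE 0.23, limma adjusted p = 0.394) in TBI vs Sham. Icam2 and the neuronal Icam5 had log2 fold changes of 0.27 and -0.62 in TBI vs Sham (limma adjusted p of 0.663 and 0.133), and Madcam1, an addressin of gut vessels, was not above background on any Naive, Sham or TBI array.

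Cd9, a tetraspanin that associates with integrins, rose in TBI vs Naive and in Sham vs Naive. It was at 115%, 138% and 108% in Naive, 251% and 206% in Sham and 177%, 282% and 197% in TBI rats, and Sham and TBI overlapped. The log2 fold change was 0.84 (SE 0.21, limma adjusted p = 0.0381) in TBI vs Naive and -0.08 (SE 0.23, limma adjusted p = 0.855) in TBI vs Sham. The call against Naive was lost without Naive replicate 1 or 3 or TBI replicate 2 or 3 (limma adjusted p from 0.0867 to 0.135).

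Cd47, an integrin-associated protein that acts as a signal against phagocytosis, fell in TBI vs Naive by the probe used, at 142% and 137% in Naive, 110% and 110% in Sham and 76.3% and 78.5% in TBI rats. Naive replicate 1 and TBI replicate 1 had no usable spot for this probe and were left out of its fit. The log2 fold change was -0.85 (SE 0.16, limma adjusted p = 0.0181). The second Cd47 probe did not show this: its log2 fold change in TBI vs Naive was 0.36 (SE 0.20, limma adjusted p = 0.331), in the opposite direction. Without Naive replicate 2 or 3 or TBI replicate 2 or 3 the fall was not called (limma adjusted p from 0.0534 to 0.0747).

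**Figure D1:**
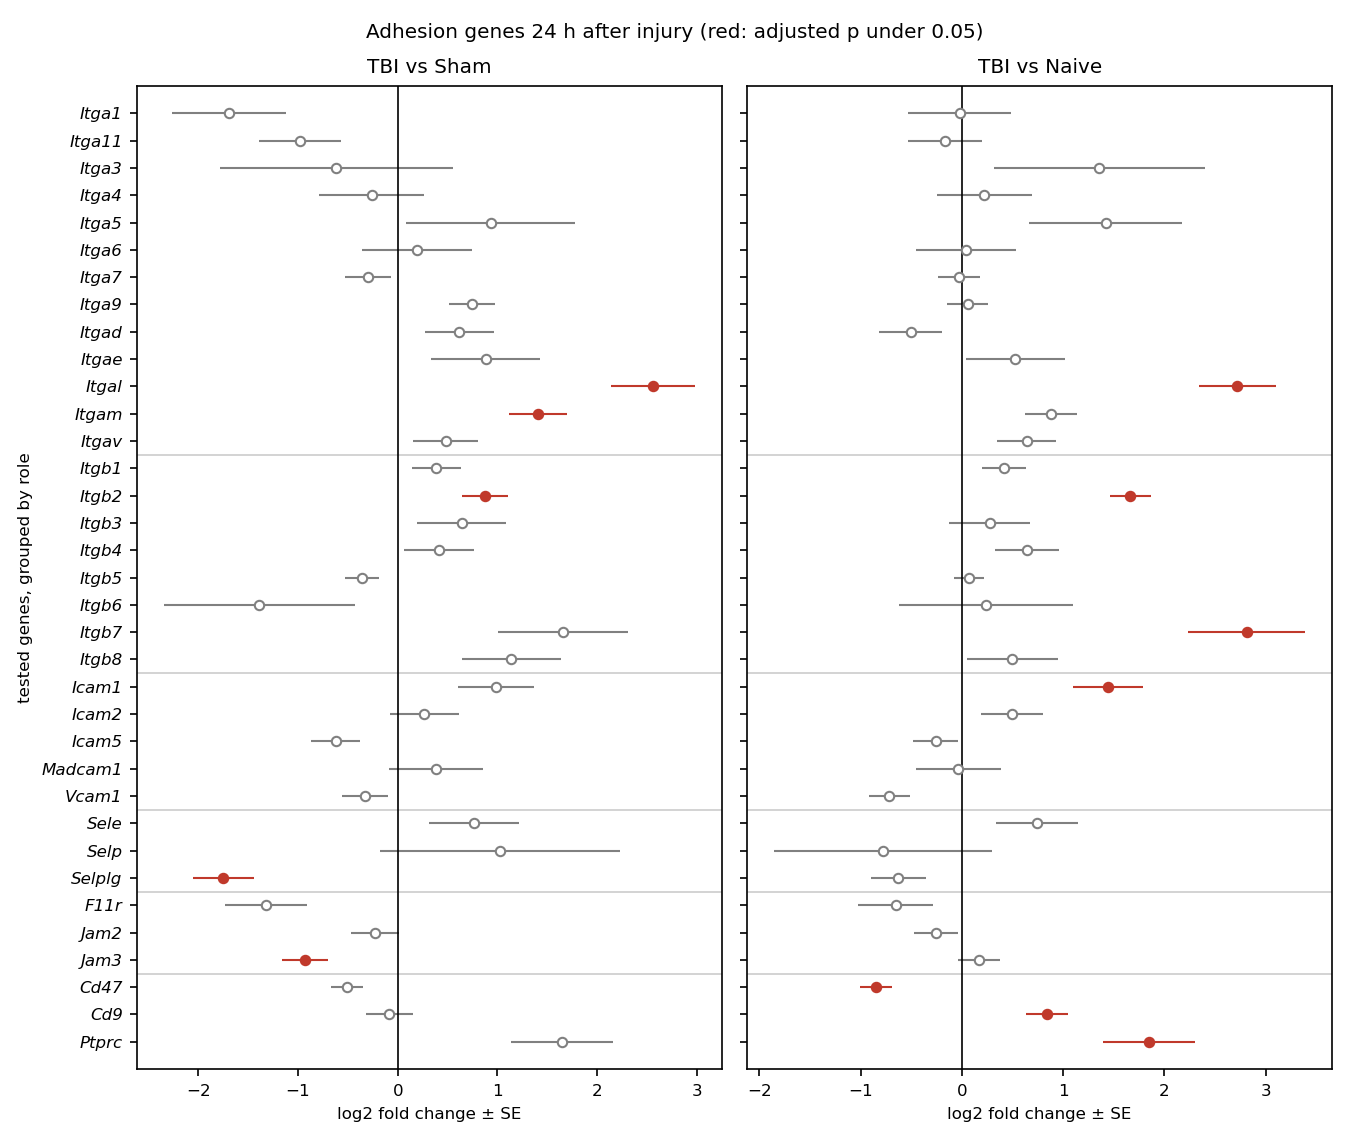
Log2 fold change with its SE for 35 of the 36 tested adhesion genes in TBI vs Sham (left) and TBI vs Naive (right), grouped by role, with called genes in red. Itgal and Itgb2 are red on the positive side of both panels, Selplg and Jam3 on the negative side of the left panel (-1.75 and -0.93) and Cd47 on that of the right panel (-0.85). Values of probes below background are drawn as fitted, so those of Itgal and Itgb7 are not fold changes of measured levels.

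Sham and Naive rats differ by the surgery. In Sham vs Naive, 3 of 36 adhesion genes rose and 0 fell, at 8.07% of all tested probes called (6.55% higher, 1.51% lower). The 3 were Jam3 (log2 fold change 1.10, SE 0.23, limma adjusted p = 0.0149), Selplg (1.12, SE 0.30, limma adjusted p = 0.0401) and Cd9 (0.92, SE 0.23, limma adjusted p = 0.0302). The call was lost in 11 of 12 alternatives for Selplg, in 6 for Cd9 and in 4 for Jam3. Quantile normalization gave 2 higher and 1 lower (5.76% of all probes, 3.29% higher and 2.47% lower), and these were Cd9, Jam3 and Itga9. Jam3 and Selplg are the genes that fell in TBI vs Sham, and both comparisons share the 2 Sham rats. Within the slide that held both groups, with 2 rats each, the log2 differences were 0.98, 1.06 and 0.85 for Jam3, Selplg and Cd9. Limma called no adhesion gene without Naive replicate 3 or Sham replicate 2, only Jam3 without Naive replicate 1 and only Itgb2 without Sham replicate 1.

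The slide that held all TBI arrays also held Naive replicate 3, which gives a TBI vs Naive difference free of the slide, with 1 Naive rat. On it the log2 differences were 1.02 for Itgam, 1.71 for Itgb2, 2.03 for Ptprc, 1.93 for Icam1, 0.99 for Cd9 and -0.83 for Cd47, of the same sign as over all arrays. With the slide as a fixed block, TBI vs Sham gave log2 fold changes of 1.61 (SE 0.54) for Itgam, 0.94 (SE 0.47) for Itgb2, -1.57 (SE 0.62) for Selplg and -0.57 (SE 0.44) for Jam3, with limma adjusted p from 0.685 to 0.843, so that none was called. At an unadjusted p under 0.05 the block gave 5, 9 and 5 of the 36 genes in TBI vs Sham, TBI vs Naive and Sham vs Naive, none of them called. The share of all tested probes at that threshold is not given here, so these counts are not set against the array.

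Of the integrins that bind matrix proteins, none was called in TBI vs Sham. Itgb1, the beta chain shared by most matrix receptors, was at 131% to 195% in Naive, 151% and 159% in Sham and 155%, 267% and 202% in TBI rats, and its log2 fold change was 0.39 (SE 0.25, limma adjusted p = 0.348) in TBI vs Sham. A second Itgb1 probe was called in TBI vs Naive (0.88, SE 0.18, limma adjusted p = 0.0203) and in Sham vs Naive (1.22, SE 0.21, limma adjusted p = 0.00622), where the first was not. Itga9, an alpha chain that binds the Vcam1 product and tenascin, differed by 0.74 (SE 0.23, limma adjusted p = 0.0581) in TBI vs Sham and was called with quantile normalization. Itgb5, which pairs with the Itgav chain, Itgb4, the laminin receptor chain, and Itga7, a laminin-binding alpha chain, had log2 fold changes of -0.36, 0.41 and -0.30 in TBI vs Sham, none of them called (limma adjusted p from 0.196 to 0.489).

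Other genes of adhesion and extravasation were taken from lists chosen by function. Of 18 integrin activators and adaptors tested in TBI vs Sham, 1 was called higher and 1 lower, beside 9.38% of all tested probes called, with a median log2 fold change of 0.10. Fermt1, a kindlin, was called higher (limma adjusted p = 0.0184) but was above background on 1 TBI and no Sham array, so no fold is given, and the kinase gene Src fell (-0.84, SE 0.24, limma adjusted p = 0.0491), a call lost with quantile normalization (limma adjusted p = 0.0646). Of 6 matrix ligands of integrins tested, 1 rose, at a median of 0.02. This was Spp1, osteopontin, above background on all TBI arrays and 1 of the 2 Sham arrays (6.24, SE 1.19, limma adjusted p = 0.0121). Of 11 other extravasation genes, 1 rose and 1 fell, at a median of 0.30. Cd44, the hyaluronan receptor, rose (2.77, SE 0.39, limma adjusted p = 0.00507), and Thy1, which is abundant on neurons, fell (-1.12, SE 0.25, limma adjusted p = 0.0217). None of 8 makers and carriers of selectin ligands was called by limma.

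Some markers of the cells that carry these proteins were called in TBI vs Sham, where 9.38% of all tested probes were called (2.92% higher, 6.46% lower). Of 6 microglial genes Cd68, a lysosomal protein of phagocytes, rose (2.68, SE 0.60, limma adjusted p = 0.0196), and the homeostatic genes P2ry12 (-1.41, SE 0.28, limma adjusted p = 0.0130) and Tmem119 (-2.17, SE 0.39, limma adjusted p = 0.00930) fell. P2ry12 was at 44.2% to 44.7% in Naive, 84.2% and 100% in Sham and 27.8% to 50.7% in TBI rats. Tmem119 was at 19.0% to 32.2% in Naive, 42.7% and 47.6% in Sham and 6.30% to 13.4% in TBI rats. Sham was the highest of these groups for both genes, and no microglial gene was called lower in TBI vs Naive. The summed level of the microglial list was 472% to 509% in Naive, 545% and 842% in Sham and 637% to 855% in TBI rats, so Sham and TBI overlapped. Of 4 neutrophil genes tested, the calgranulins S100a8 (3.77, SE 0.66, limma adjusted p = 0.00991) and S100a9 (2.95, SE 0.80, limma adjusted p = 0.0388) rose. S100a9 was not called with quantile normalization (limma adjusted p = 0.0509). Mpo and Ngp were not above background on any Naive, Sham or TBI array, and Retnlg was above it on all of these but was not called. The neutrophil list summed to 11.03% to 14.4% in Naive, 149% and 16.4% in Sham and 31.6%, 286% and 123% in TBI rats. The Sham sum of 149% was mostly Elane, at 137% on that array and above background on no other, and Camp was above background on the 3 Naive arrays alone. TBI replicate 1, lowest of the 3 for Ptprc and Itgb7, was also the lowest for this list.

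None of 5 genes of blood monocytes and macrophages was called, with sums of 61.6% to 84.1% in Naive, 94.0% and 135% in Sham and 102% and 433% in the TBI rats with a value for each gene (TBI replicate 3 had none for Lyz2). Of 8 lymphocyte genes tested 1 rose, Cd3d (0.92, SE 0.27, limma adjusted p = 0.0472). The lymphocyte list summed to 6.61% to 8.35%, 20.5% to 27.5% and 17.1% to 31.6% in Naive, Sham and TBI rats. Of 7 endothelial genes Cldn5, a tight junction protein, fell (-1.23, SE 0.33, limma adjusted p = 0.0351) but was not called with quantile normalization (limma adjusted p = 0.0565). Cldn5 was at 63.8% to 133% in Naive, 191% and 212% in Sham and 67.95% to 126% in TBI rats. No endothelial gene was called in TBI vs Naive. The endothelial list summed to 153% to 377% in Naive, 304% and 347% in Sham and 282% to 299% in TBI rats. The part of these cells in the adhesion gene results was not tested.

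Of the remaining lists, 2 of 5 neuronal genes (Snap25 and Slc17a7), 2 of 5 oligodendrocyte genes (Mobp among them) and 1 of 6 genes of the hippocampal fields (Fibcd1) fell in TBI vs Sham, beside 6.46% of all tested probes. The calls of Snap25 and Fibcd1 were lost with quantile normalization (limma adjusted p of 0.0548 and 0.0522). Among the Naive, Sham and TBI groups, Sham was highest for Snap25, Slc17a7, Mobp and Fibcd1. Slc17a7 was at 26.0% to 37.3% in Naive, 79.5% and 89.9% in Sham and 18.8% to 53.9% in TBI rats. Mobp was at 222% to 281%, 858% and 140% to 508% in these groups. No gene of these lists was called lower in TBI vs Naive with the percentile scaling, and 1 neuronal gene was with quantile normalization. None of the 5 astrocyte, 2 platelet, 4 red cell and 4 choroid plexus genes tested was called by limma.

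The drug groups were compared with TBI to see how each drug altered the injured hippocampus. In TBI+JM6 vs TBI, 25 of 36 adhesion genes rose and 0 fell, in TBI+PMI vs TBI 22 and 0, and in TBI+E33 vs TBI 24 and 0. Of all tested probes 70.1%, 56.7% and 70.3% were called in these comparisons, so the adhesion genes (69.4%, 61.1% and 66.7%) were near the rest of the array. Nearly all calls of the array were higher ones (69.9%, 56.7% and 70.2% of tested probes, against 0.175%, 0.0482% and 0.0920% lower). Over the whole array the median difference was 0.99, 0.79 and 1.08 on the log2 scale, and over the adhesion genes 1.32, 1.12 and 1.36. Of the 20 adhesion genes that passed the filter in a Naive, Sham or TBI group, 12, 11 and 11 were called. The share called among all probes that passed in these groups is not given here, so these counts are not set against the array. The other 16 passed through the drug groups alone, in which they had to be detected, so their calls are a description. These comparisons share the 3 TBI rats and each sets one scanning session against the other.

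Quantile normalization, which gives all arrays one distribution, moved the median of all tested probes to near 0 in each comparison and that of the adhesion genes to 0.08 in TBI+PMI vs TBI and near 0 in the others. With it 5 adhesion genes rose and 3 fell in TBI+JM6 vs TBI (27.2% of all tested probes called, 13.9% higher and 13.3% lower), 3 rose and 2 fell in TBI+PMI vs TBI (19.2%, 9.96% higher and 9.20% lower), and 2 rose and 2 fell in TBI+E33 vs TBI (20.4%, 10.4% higher and 9.98% lower). Directions against TBI are therefore given under both scalings.

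Cd47 rose against TBI in all 3 drug groups under both scalings, and was picked out by these results. Madcam1 was also called in each, but passed the filter through the drug groups alone. Cd47 was at 185%, 197% and 175% in TBI+PMI, 229%, 211% and 230% in TBI+JM6 and 206% and 192% in TBI+E33 rats, against 76.3% and 78.5% in the 2 TBI rats with a usable spot. No drug array overlapped TBI, or the Naive and Sham arrays. The log2 fold change was 1.53 (SE 0.14) for JM6, 1.26 (SE 0.14) for PMI and 1.36 (SE 0.16) for E33, with limma adjusted p of 1.2e-05, 7.2e-05 and 5.1e-05. With quantile normalization it was 0.89, 0.77 and 0.70 (limma adjusted p of 0.00312, 0.00852 and 0.0165). The second Cd47 probe gave 1.33, 0.95 and 1.16, called in each. The call of the first probe was lost when arrays were scaled to their E1A control spots for PMI (0.78, limma adjusted p = 0.104) and E33 (0.68, 0.182), and for E33 also with a GC trend removed (0.35, 0.110) and in the authors' matrix (0.51, 0.0730).

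Madcam1 was at 4.28%, 6.73% and 4.96% in TBI+PMI, 4.59%, 3.35% and 7.49% in TBI+JM6 and 6.45% and 6.57% in TBI+E33 rats and above background on no array of the other session (0.338% to 1.001%). It was at least 3.04-fold higher than in TBI with JM6, at least 3.27-fold with PMI and at least 4.07-fold with E33. With quantile normalization these bounds became 1.15 for PMI and 1.03 for E33, and none could be given for JM6. With a normexp background correction Madcam1 was not called in any drug group (limma adjusted p from 0.203 to 0.989). In all, 6 adhesion genes (among them Itga4, Itga6, Itgad, Itgb3 and Madcam1) were above background on all 8 drug arrays and on none of the 8 others, a pattern held by 4.28% of tested probes.

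Itgam was not called against TBI in any drug group by the probe used with either scaling. It was called with a GC trend removed for JM6 and E33 and under the replicate block, and without TBI+PMI replicate 3, for PMI. It was at 110%, 140% and 77.6% in TBI+PMI, 96.1%, 99.6% and 109% in TBI+JM6 and 85.0% and 113% in TBI+E33 rats, and both TBI+PMI and TBI+E33 overlapped TBI. Log2 fold changes were 0.45 for JM6, 0.51 for PMI and 0.40 for E33 (limma adjusted p from 0.108 to 0.228), and with quantile normalization they were -0.26, -0.03 and -0.34 (limma adjusted p from 0.308 to 0.926). The second Itgam probe was called higher with the percentile scaling, by 1.25, 1.52 and 1.05, so the probes of this gene differ here.

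Of the other genes that changed with injury, those described next were not called under both scalings in all drug groups. Itgb2 rose by 1.51 (SE 0.21), 0.96 (SE 0.21) and 1.35 (SE 0.23) with JM6, PMI and E33, and with quantile normalization the values were 0.61, 0.19 and 0.38, called for JM6 alone (limma adjusted p = 0.0228). Icam1 rose with JM6 (0.85) and E33 (0.91), and with quantile normalization the values were -0.04 and -0.03. Itgal, above background on 2 of the 3 TBI arrays, passed the filter through the drug groups alone, so its calls against TBI are a description. With JM6, PMI and E33 it was called at 1.66, 1.15 and 1.40, against quantile values of 0.01, -0.29 and -0.51. Selplg rose by 1.725, 1.498 and 2.005, and with quantile normalization the values 0.36, 0.35 and 0.58 were not called (limma adjusted p from 0.250 to 0.457). Ptprc was not called in any drug group with either scaling by the probe used. Its second probe, above background on 1 of the 3 TBI arrays, was called higher in all drug groups with the percentile scaling. That probe also passed the filter through the drug groups alone.

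Some adhesion genes fell with quantile normalization and not with the percentile scaling. Itga9 fell in all 3 drug groups, by 0.69 with JM6, 0.77 with PMI and 0.66 with E33 (limma adjusted p of 0.00853, 0.00778 and 0.0227), where the percentile scaling gave 0.32, 0.07 and 0.44, not called. Itga9 was also called in all 3 with the authors' matrix and with a GC trend removed. Itgb4 fell with JM6 (-0.996, limma adjusted p = 0.0412). Itgav, the vitronectin receptor alpha chain, was not above background on any TBI array and passed the filter through the drug groups alone. As a description, it was called lower with JM6 and E33 by quantile normalization (limma adjusted p of 0.0406 and 0.00832). With the percentile scaling it was called at least 2.06-fold and 1.78-fold higher. Sele was called lower with PMI by quantile normalization but was above background on no TBI or TBI+PMI array.

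**Figure D2:**
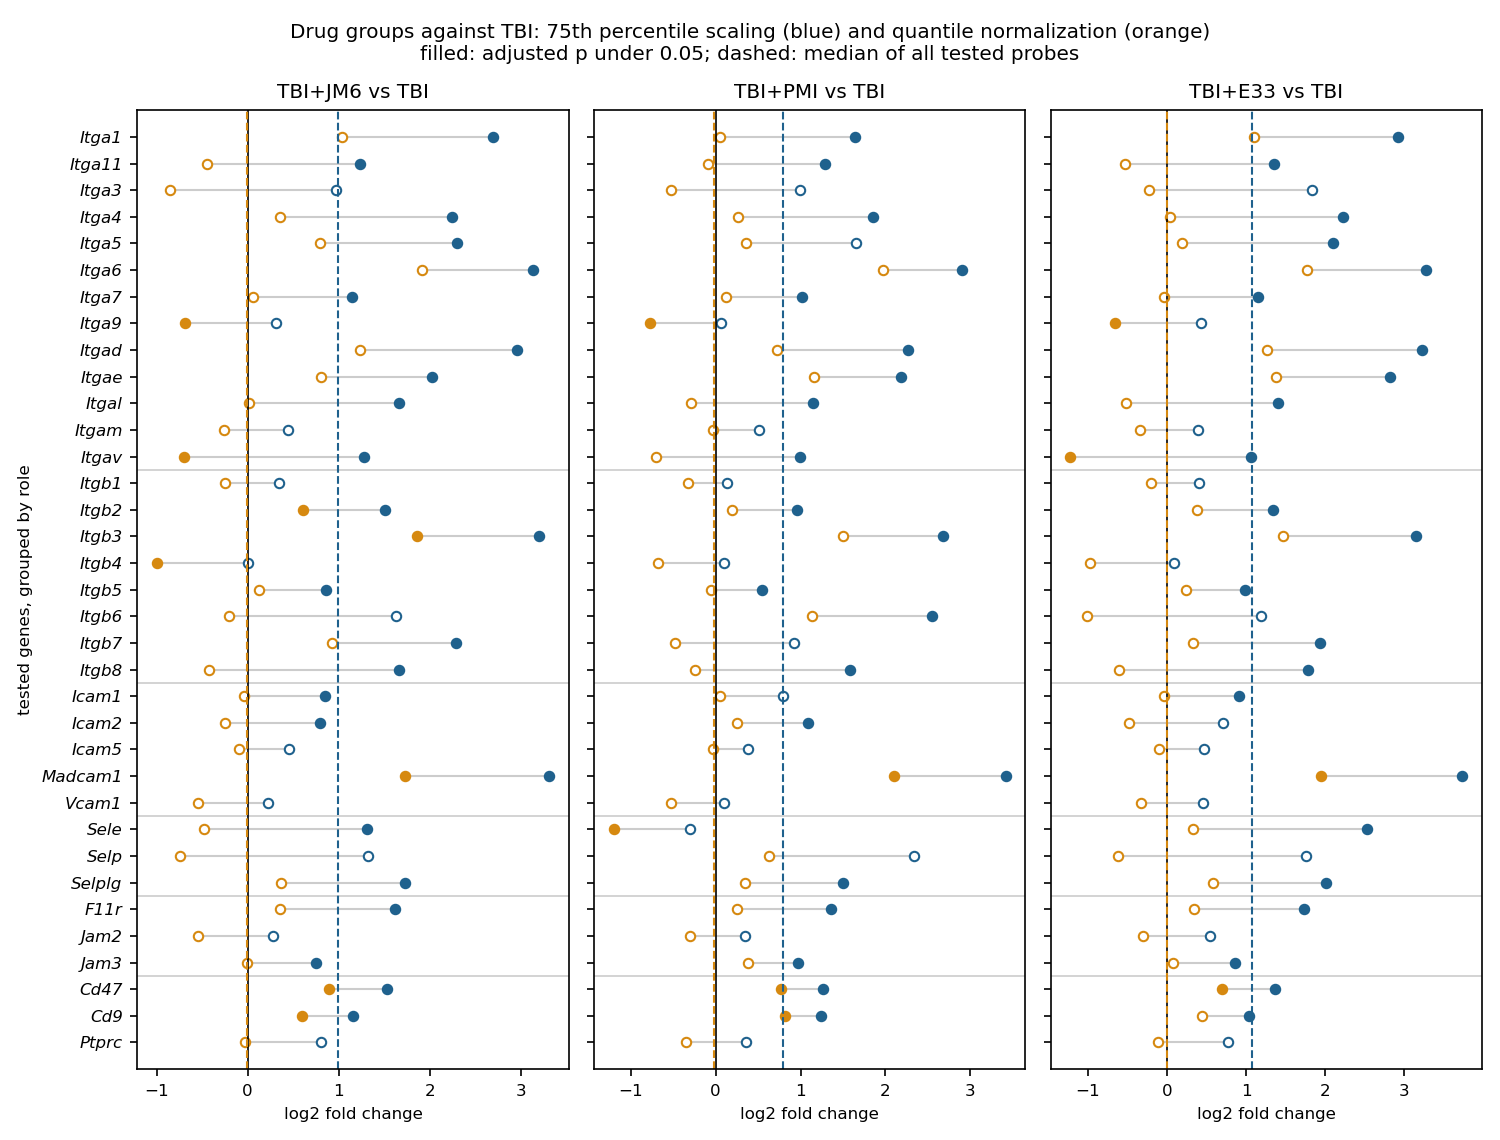
Log2 fold change of 35 of the 36 tested adhesion genes in each drug group against TBI, with the percentile scaling (blue) and quantile normalization (orange), filled where called, with dashed lines at the median of all tested probes. The blue medians lie at 0.99, 0.79 and 1.08 and the orange ones near 0, and Cd47 and Madcam1 are filled on the positive side in both colours in every panel. Madcam1 passed the filter through the drug groups alone.

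The drug groups were scanned in one session and can be compared with each other, though on 2 slides. In 108 comparisons (36 genes in 3 pairs of groups), 1 adhesion gene was called, Sele in TBI+PMI vs TBI+E33, where 0.110% of all tested probes were called (0.00438% higher, 0.105% lower). In TBI+JM6 vs TBI+PMI and TBI+JM6 vs TBI+E33 limma called 0 adhesion genes (0.0131% and 0.0175% of all tested probes), with 5 and 1 genes at an unadjusted p under 0.05. The methods' t-test at its own threshold, without adjustment, called 6 and 0. Shares of all tested probes at these unadjusted thresholds are not given here.

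Sele, E-selectin of activated endothelium, was above background on the TBI+E33 arrays only, at 3.101% and 4.19%. It was at 0.411%, 0.454% and 0.696% in TBI+PMI and 0.939%, 2.19% and 1.83% in TBI+JM6 rats, none above background. It was at least 2.21-fold lower in TBI+PMI than in TBI+E33 (limma adjusted p = 0.0487). Its probe passed the filter through the TBI+E33 arrays alone, so this is a description, and all TBI+PMI arrays lay on one slide and both TBI+E33 arrays on another, with TBI+JM6 arrays on each. The call was lost in 9 of 12 alternatives, among them quantile normalization (limma adjusted p = 0.296) and the slide as a block (0.99981), and when either TBI+E33 array or TBI+PMI replicate 1 or 2 was left out. A second Sele probe was not above background on any array.

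For the other genes the size of the difference is given by its interval. For Itgam the 95% interval of the log2 difference was -0.63 to 0.50 in TBI+JM6 vs TBI+PMI, -0.58 to 0.68 in TBI+JM6 vs TBI+E33 and -0.51 to 0.75 in TBI+PMI vs TBI+E33. For Icam1 it was -0.68 to 0.81, -0.89 to 0.77 and -0.95 to 0.71. The interval lay within 1 log2 unit of 0 for 18, 18 and 16 of the 36 genes in the 3 pairs. Itgb2 was higher in TBI+JM6 than in TBI+PMI by 0.54 with an interval from 0.10 to 0.99, which was not called (limma adjusted p = 0.480), and on the slide that held both groups the difference was 0.48, with 1 TBI+JM6 rat.

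**Figure D3:**
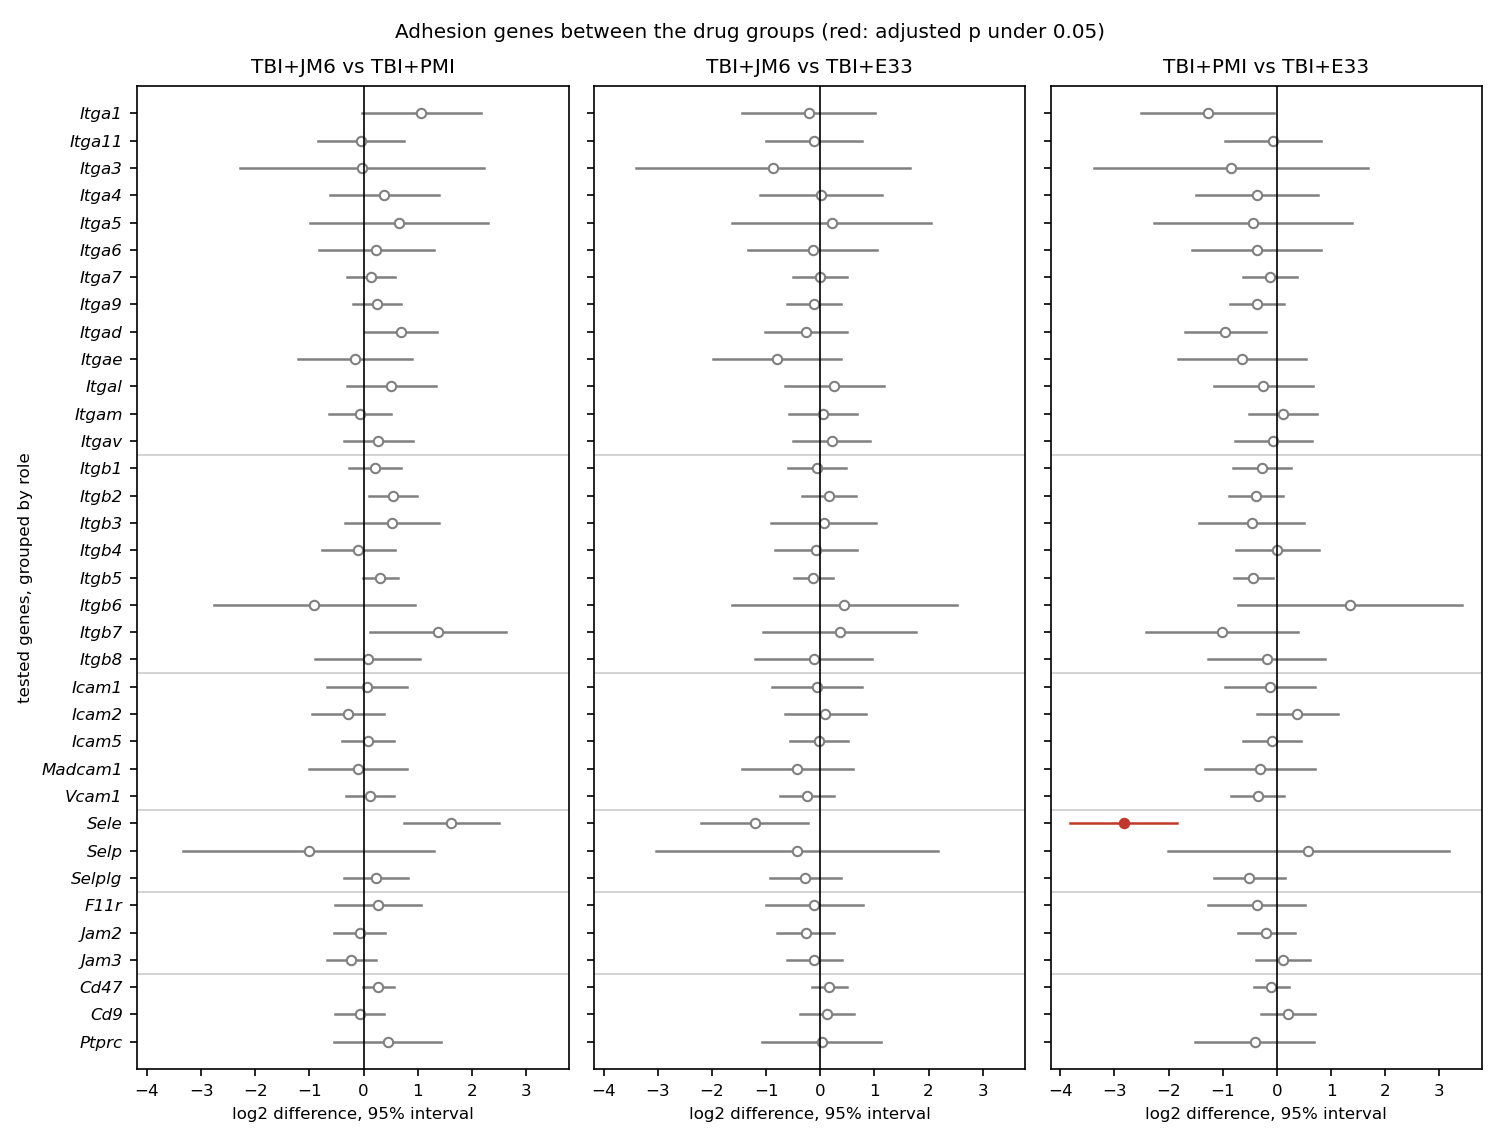
Log2 difference of 35 of the 36 tested adhesion genes between pairs of drug groups with its 95% interval, grouped by role. Sele in TBI+PMI vs TBI+E33 is the only red point, with an interval from -3.82 to -1.85, and most other intervals include 0.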

How the data were processed

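Hippocampal RNA of 16 rats was hybridised to 1-colour Agilent rat arrays. The deposited intensity values are the processed signals that the authors obtained with Agilent Feature Extraction 9.5.3.1 (probe positions in rn4), background-corrected but not normalized between arrays. The authors also deposited a matrix of ratio values, whose scale and centring are not stated in the file. Its median was 0.14 on each of the 16 arrays; it correlated with the intensities at 0.981 to 0.999 and was used as an alternative. Which of the amplification kits served which rat is not given in the sources used here.

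Spots of a probe were averaged, and intensities were divided by each array's 75th percentile of probes well above background and put on the log2 scale. Probes well above background on all arrays of at least 1 group (22821) were fitted with limma 3.58.1 in R 4.3.3, with a mean per group over all 16 arrays. "At least N-fold" compares the mean of a group, measured on some or all of its arrays, with a group in which the probe was not measured. The latter is set at the lowest signal well above background on its arrays. Figures used matplotlib 3.10.9. The steps were tested on simulated data. Genes are named where called in a comparison, or as the main member of a role, and the members and lists were chosen with earlier results of these data known. The methods give 3 rats per group; 2 Sham and 2 TBI+E33 arrays were analysed here. The number of arrays limits the precision. Alternatives covered the background correction, scaling, filter, probe, slide, arrays in the fit, the methods' t-test and each array left out. Same-numbered replicates did not deviate together (median correlation 0.019 over 36 pairs), so numbers were not used as pairs. Counts cover all tested genes, and the values of some of them are not reported here.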

Additional observations from a re-analysis of the deposited data

How the results depend on the processing

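Of the values of single genes under the alternatives, 542 kept their direction and side of the threshold, 282 were no longer called, 12 became called and 19 turned their direction. Counts of called adhesion genes are given in the order Sham vs Naive, TBI vs Naive and TBI vs Sham (3, 8 and 6 as reported), then TBI+E33, TBI+JM6 and TBI+PMI vs TBI (24, 25 and 22) and TBI+PMI vs TBI+E33 (1). Shares of all tested probes called are given above for the percentile scaling and quantile normalization only. The other counts are therefore not set against the rest of the array. The percentile over all probes gave 5, 9, 10, 11, 12, 11 and 0, and removing a GC trend gave 6, 10, 10, 13, 15, 11 and 0. The authors' matrix gave 3, 7, 7, 3, 8, 5 and 0, quantile normalization 3, 8, 7, 4, 8, 5 and 0, and E1A control spots 1, 8, 3, 9, 14, 6 and 0. Normexp gave 0, 0, 0, 3, 7, 3 and 0 (2, 8 and 5 genes at an unadjusted p under 0.05 in the first 3). The compared groups alone gave 0, 0, 0, 26, 26, 23 and 0 (9, 11 and 12 unadjusted), and no filter gave 2, 5, 5, 22, 26, 24 and 1. The methods' t-test gave 0, 0, 0, 10, 19, 14 and 0 after Benjamini-Hochberg adjustment and 5, 10, 10, 22, 24, 22 and 4 at its own threshold, where it also called 6 in TBI+JM6 vs TBI+PMI. The slide as a fixed block gave 0 in the first 3 and in TBI+PMI vs TBI+E33. The replicate block gave 2, 9, 7, 22, 25, 23 and 1, so it moved no count by over 1.5 times. Leaving out 1 array gave 0 to 3, 3 to 11, 1 to 13, 19 to 26, 22 to 27, 19 to 24 and 0 to 1, with 0 throughout in the other drug pairs. TBI vs Sham fell to 1 (Selplg) without Sham replicate 1 and 3 without TBI replicate 2 and rose to 13 without TBI replicate 1, and TBI vs Naive fell to 3 without Naive replicate 3, TBI replicate 2 or TBI replicate 3 and to 5 without Naive replicate 1.

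The direction turned for Cd47 in TBI vs Naive by the other probe (0.36). Against TBI it turned with E33 for Cd9 (GC -0.014), Icam1 (GC -0.17, matrix -0.027, quantile -0.034), Itgal (matrix -0.39, quantile -0.51) and Jam3 (GC -0.23), and with JM6 for Icam1 (GC -0.17, matrix -0.036, quantile -0.044), Jam3 (all-probe percentile -0.043, GC -0.28, quantile -0.0061) and Sele (matrix -0.44, quantile -0.48). With PMI it turned for Itgal (matrix -0.19, quantile -0.29) and for Sele without TBI replicate 2 (0.18, in a range from -0.68 over the arrays left out). The cause was not tested. Probes not well above background limit Itgal, Itgb7, Sele and Madcam1 to bounds against the groups in which they were not measured.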
